A study of Mus musculus with 2 samples.

Results

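The genes described here are the nuclear genes of oxidative phosphorylation, the mitochondrial pathway that turns the energy of NADH and succinate into ATP. They were chosen by symbol, from the families Nduf, Sdh, Uqcr, Cox4 to Cox8 and Atp5, with at least 100 unique molecular identifiers (UMIs, molecules counted once each) over both libraries. Of 32285 genes counted in the series, 85 had such a symbol, and 82 of those passed the minimum. They held 36 members of complex I, 4 of complex II, 8 of complex III, 17 of complex IV and 17 of complex V. Total UMIs chose the members, so their abundance over both libraries is a description and not a finding. Cox8b with 36 UMIs, Cox7b2 with 2 and Cox8c with 0 fell below the minimum, and the members nearest above it were Cox4i2 with 443, Cox6b2 with 554, Cox6a2 with 654, Ndufa4l2 with 813 and Cox7a1 with 1153.

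The study profiled macrophages of mouse heart 3 days after myocardial infarction (MI) by droplet single-cell RNA sequencing. Cells positive for CD45, CD11b and CD64 had been sorted from infarct and border zone tissue of CD40 KO mice and of WT mice, with 1 library for each genotype. Labels and design text, as used here, give neither the CD40 allele nor the age or number of the mice, and both groups had an MI, so there was no uninjured heart to compare with. With 1 library a group no difference could be checked against replicates, and no test was made: intervals are 95% exact intervals that cover counting error only, and a direction is between these 2 libraries.

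In the respiratory chain, complex I takes electrons from NADH and complex II takes them from succinate, complex III passes them to cytochrome c, and complex IV gives them to oxygen. Complexes I, III and IV pump protons, and the return of the protons drives complex V, the ATP synthase. Nuclear genes encode all of complex II and most subunits of the others, while mitochondrial DNA encodes the core membrane subunits. Macrophages are known to lean on glycolysis when strongly activated and on respiration when they take part in repair, mature neutrophils keep little respiration, and heart muscle has its own isoforms of several complex IV subunits.

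The CD40 KO-labelled library held 8146 barcodes and 90057108 UMIs, against 10624 barcodes and 139343516 UMIs in WT, and 7404 against 7249 barcodes were analysed after filters. Cd40 was at 18.3 CPM (its UMIs scaled to a library total of 1000000) over all barcodes of the CD40 KO-labelled library and at 17.8 CPM in WT, so the counts do not separate the labels. Whether the 3′ tags counted lie inside or outside a deleted part of the gene is not known, so the genotype label could not be checked. The sort antigen genes Ptprc, Itgam and Fcgr1 were at 502, 165 and 174 CPM in the CD40 KO-labelled library and at 494, 161 and 176 CPM in WT. A cluster of 4338 barcodes (58.6%) of the CD40 KO-labelled library had only 33 counterparts in WT (0.455%). It is kept apart below because nearly all of it came from 1 library (99.2% by share of each library's analysed barcodes), so it cannot be told apart from its library. It was also shallow, with a median of 3205 UMIs a barcode in the CD40 KO-labelled library, but depth was not a reason for keeping it apart. Barcode sequences shared by both libraries numbered 23, of which 13 were analysed.

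Most values below are for the macrophage-like class, 6 clusters with 2286 barcodes in the CD40 KO-labelled library and 5128 in WT and with a median of 15308 and 11642 UMIs a barcode. Of the 14 monocyte and macrophage markers 13 reached 50 CPM in this class in the CD40 KO-labelled library and 14 did so in WT. Their sum was 9620 against 14998 CPM, and Apoe alone made up 3811 of the 9620 and 7088 of the 14998 CPM. Other cell types left little in the class: the 10 neutrophil markers summed to 263 against 136 CPM, the 10 endothelial markers to 121 against 462 CPM, of which Fabp4 made up 96.3 and 440 CPM, and the 10 fibroblast markers to 245 against 294 CPM, most of it Gsn. The part of these markers in the results below was not tested.

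In the macrophage-like class, without the cluster kept apart, the nuclear genes were slightly more abundant in the CD40 KO-labelled library. That direction turned when the members with short transcripts were left out, as given with the lengths. With the cluster kept apart added to the class, the log2 ratio of the sum was 0.37. Members summed to 15239 CPM (95% interval 15204 to 15275) in the macrophage-like class of the CD40 KO-labelled library and to 13729 CPM (13703 to 13756) in WT, a ratio of 1.11 (log2 0.15). Barcode by barcode, members took a median of 1.46% of UMIs in the CD40 KO-labelled library (quartiles 1.19% to 1.70%) and 1.34% in WT (1.14% to 1.53%), so the distributions overlapped widely. All genes measured had a median log2 ratio of 0.10, and with the libraries scaled by the median of ratios in place of total UMIs the members' sum was at 0.052. The ratio also varied with barcode depth: it was 0.26 in barcodes of 1000 to 3000 UMIs, -0.20 in those of 3000 to 6000 and -0.06 in those of 6000 to 10000. In barcodes of 10000 to 15000, 15000 to 25000, 25000 to 50000 and over 50000 UMIs it was 0.05, 0.14, 0.21 and 0.10.

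The complexes did not move together. Complex III summed to 1528 CPM in the CD40 KO-labelled library and 1096 CPM in WT, log2 0.48 (0.47 to 0.49), and was the complex with the largest ratio. Complex V followed with 4761 against 4178 CPM (log2 0.19), then complex IV with 4228 against 3967 CPM (0.09) and complex I with 4427 against 4173 CPM (0.09). Complex II, the entry point for succinate, was the exception with 295 against 315 CPM (log2 -0.09, -0.12 to -0.06). With median-of-ratios scaling the signs of complexes I and IV turned, to -0.013 and -0.0069, while complexes III and V stayed above 0 and complex II below. Median transcript length was also shortest in complex III, at 541 nucleotides, and longest in complex II, at 2065.5.

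**Figure D1:**
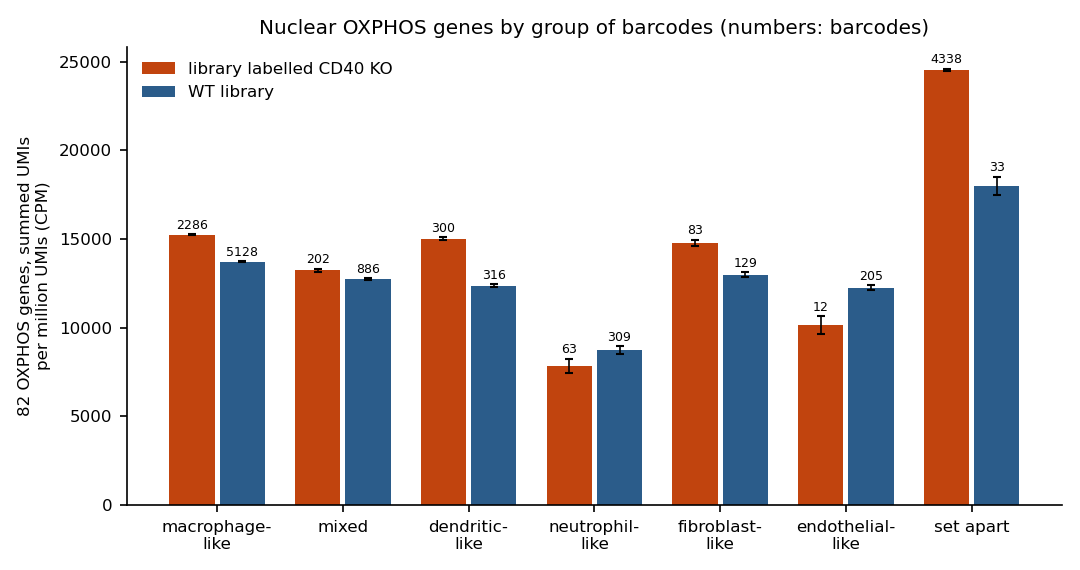
Bars give the summed CPM (vertical axis, from 0) of the 82 genes in each group of barcodes, for the CD40 KO-labelled library (orange) and WT (blue), with 95% counting intervals and the number of barcodes above each bar. Neutrophil-like barcodes are lowest, at 7860 and 8746 CPM, and the cluster kept apart is highest, at 24533 and 17984 CPM.

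By size, 77 members reached a mean of 10 CPM in the class and could be compared. Of these 25 (32.5%) were at least 1.3-fold higher in the CD40 KO-labelled library, where 20.6% of all genes measured were, and 9 (11.7%) were at least 1.3-fold lower, against 10.5% of all genes. The other 43 lay between. The median log2 ratio of the members was 0.12, beside 0.10 for all 7579 genes, so the members as a body lay close to the background and the differences were within the pathway. The 5 members below 10 CPM were all tissue or alternative isoforms of complex IV and are described further on.

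**Figure D2:**
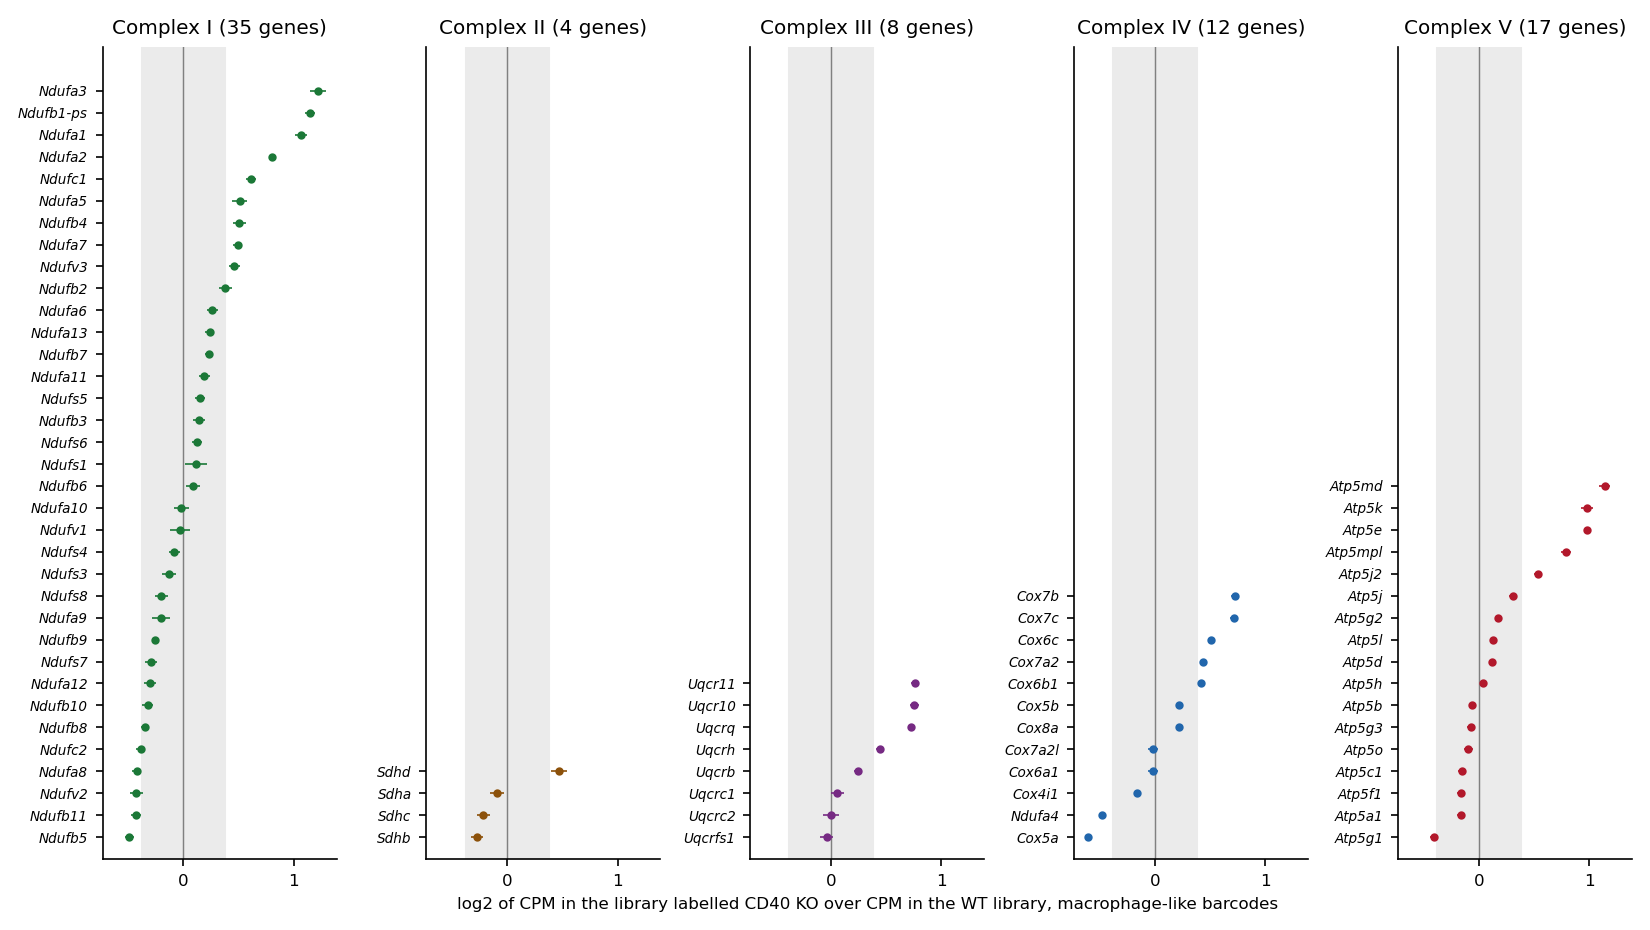
Each point is the log2 ratio of CPM (horizontal axis) of 1 of 76 of the 77 measured genes in macrophage-like barcodes, the CD40 KO-labelled library over WT, with its 95% counting interval, in a panel for each complex; the grey band is the range within 1.3-fold. Every complex holds members on both sides of the line at 0, from Cox5a at -0.61 to Ndufa3 at 1.22.

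In complex I, which has the most subunits, 10 of 36 members were higher in the CD40 KO-labelled library and 6 were lower. Ndufa3, a small accessory subunit of the membrane arm, was at 86.8 CPM in the CD40 KO-labelled library and 37.2 CPM in WT, log2 1.22 (1.15 to 1.29). That was the highest ratio of any member. Ndufb1-ps was at 191 against 86.3 CPM (log2 1.14); the annotation used here types it as a long non-coding RNA at a bidirectional promoter, so its place as a subunit gene is uncertain. Ndufa1, an accessory subunit needed for assembly of the membrane arm, was at 122 against 58.2 CPM (log2 1.06), and Ndufa2, an accessory subunit of the matrix arm, at 325 against 186 CPM (log2 0.81). Ndufc1, Ndufa5, Ndufb4, Ndufa7, Ndufv3 and Ndufb2 were higher by 0.38 to 0.61 on the log2 scale.

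The lower members of complex I included a core subunit as well as accessory ones. Ndufb5, an accessory subunit of the membrane arm, was at 156 CPM in the CD40 KO-labelled library and 219 CPM in WT, log2 -0.49 (-0.53 to -0.45), and Ndufb11 was at 121 against 163 CPM (log2 -0.43). Ndufv2, an iron-sulphur core subunit of the NADH-oxidising module, was at 74.0 against 99.5 CPM (log2 -0.43). Ndufa8 and Ndufc2 were lower by a like amount. The core subunits Ndufv1, which binds NADH, and Ndufs1 were near equal, at 35.4 against 36.2 CPM and at 31.5 against 29.1 CPM. Ndufb9 and Ndufb8, the members of the complex with most UMIs, were at 238 against 284 CPM (log2 -0.25) and at 227 against 290 CPM (log2 -0.35).

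Complex II oxidises succinate to fumarate and so joins the chain to the citric acid cycle. Its catalytic subunits did not reach 1.3-fold: Sdha was at 69.2 CPM in the CD40 KO-labelled library and 73.7 CPM in WT, and Sdhb, which carries the iron-sulphur clusters, at 91.7 against 111 CPM (log2 -0.28). Of the membrane anchors Sdhc was at 75.0 against 87.2 CPM (log2 -0.22), while Sdhd was the member past 1.3-fold, at 59.0 against 42.7 CPM (log2 0.47, 0.39 to 0.54).

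Complex III had no member past 1.3-fold in the lower direction. The small subunits Uqcr11, Uqcr10 and Uqcrq were at 248, 216 and 322 CPM in the CD40 KO-labelled library and at 146, 128 and 195 CPM in WT, log2 ratios of 0.76, 0.75 and 0.73. Uqcrh, the acidic hinge protein that helps cytochrome c dock, was at 314 against 231 CPM (log2 0.44). Uqcrb, also a small subunit, stayed within 1.3-fold (log2 0.24). The core proteins Uqcrc1 and Uqcrc2 were at 72.9 against 70.1 CPM and at 58.5 CPM in both libraries, and Uqcrfs1, the Rieske iron-sulphur protein, at 84.7 against 87.1 CPM. Of the 8 members 4 were higher, and the 3 large or redox subunits did not differ beyond the counting interval (log2 -0.04 to 0.06, each interval spanning 0).

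Complex IV held the member with the lowest ratio. Cox5a, a matrix-side subunit, was at 372 CPM in the CD40 KO-labelled library and 568 CPM in WT, log2 -0.61 (-0.64 to -0.59), the lowest of the 77. Ndufa4, first counted to complex I and now known as a subunit of complex IV, was at 274 against 382 CPM (log2 -0.48). Cox7b and Cox7c, small membrane subunits, were at 276 against 167 CPM (log2 0.73) and at 319 against 195 CPM (log2 0.71), and Cox6c, Cox7a2 and Cox6b1 were higher by 0.42 to 0.51. Cox4i1 and Cox8a, the members with the most UMIs, were at 717 against 803 CPM (log2 -0.16) and at 572 against 493 CPM (log2 0.21).

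In complex V 5 of 17 members were higher and 1 was lower. Atp5md, a small membrane subunit that helps hold synthase dimers, was at 185 CPM in the CD40 KO-labelled library and 83.9 CPM in WT, log2 1.14 (1.09 to 1.19). Atp5k, also a small membrane subunit, was at 132 against 66.8 CPM (log2 0.98), and Atp5e, the epsilon subunit of the central stalk, at 598 against 303 CPM (log2 0.98). Atp5mpl and Atp5j2 were higher by 0.79 and 0.54. The alpha subunit Atp5a1 was at 317 against 356 CPM (log2 -0.17) and the catalytic beta subunit Atp5b at 277 against 288 CPM (log2 -0.06). Atp5l, whose UMIs were the most of the complex, was at 517 against 474 CPM (log2 0.12).

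The 3 genes for the ring subunit c, Atp5g1, Atp5g2 and Atp5g3, encode the same mature protein behind different import signals, but they did not move together. Atp5g1 was at 239 against 317 CPM (log2 -0.41) and was the lower member of complex V past 1.3-fold. Atp5g2 was at 348 against 309 CPM (log2 0.18) and Atp5g3 at 205 against 215 CPM (log2 -0.07). Their coding sequences were 66.6% to 68.8% identical base by base, with shared runs of at most 21 bases. Many members have processed pseudogene copies, and how reads that match more than 1 place were treated is not stated in the sources used here.

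The differences between libraries recurred in the clusters of the class. All 25 higher and all 9 lower members kept their sign in each of the 6 clusters, and 20 of the 25, but only Cox5a of the 9, were past 1.3-fold in every cluster. Complex III had a log2 ratio of 0.46 to 0.64 over the 6 clusters, and the sum of all members one of 0.12 to 0.29. The clusters come from the same 2 libraries, so they are not replicates, and since the class is their sum, part of the shared sign is built in.

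Each cluster had 77 members measured. In the Fcrls and Cx3cr1 cluster 26 (33.8%) were higher and 5 (6.5%) lower, where 13.6% of all genes were higher and 11% lower. In the cluster led by Plcb1, Met and Ly6c2 25 (32.5%) were higher and 7 (9.1%) lower, against 14.3% and 12.1% of all genes. The Lpl, Gpnmb and Fabp5 cluster held 338 barcodes in the CD40 KO-labelled library and 2190 in WT. It had 26 members (33.8%) higher and 3 (3.9%) lower, against 15.7% and 7.55% of all genes. The Scin cluster had 24 (31.2%) higher and 10 (13.0%) lower, against 23.9% and 16.4%. The cycling cluster led by Top2a had 28 (36.4%) higher and 1 (1.3%) lower, against 22.7% and 13%. In the interferon-response cluster led by Ifit3 22 (28.6%) were higher and 16 (20.8%) lower, against 21.7% and 15.7%. Those were the most lower members of the 6 clusters.

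**Figure D3:**
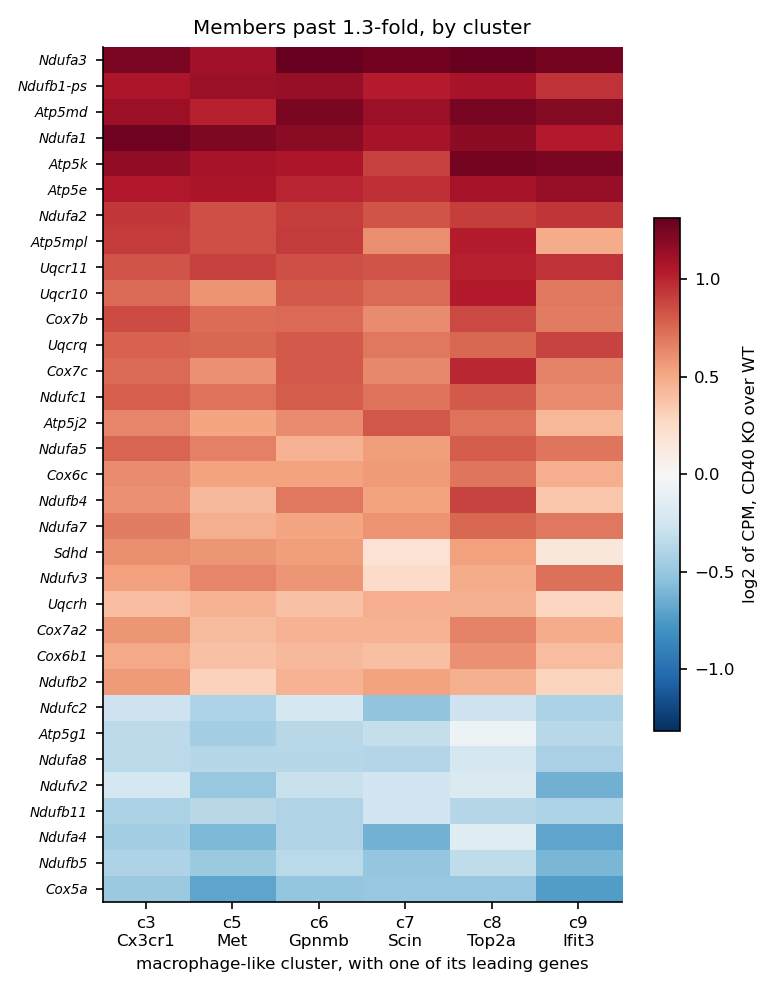
Each cell is the log2 ratio of CPM, the CD40 KO-labelled library over WT, of 1 of 33 of the 34 members past 1.3-fold (rows, ordered by their ratio in the class) in 1 of the 6 macrophage-like clusters (columns, with a leading gene of each). All cells of the upper 25 rows are above 0 (red) and all cells of the lower 8 rows below 0 (blue).

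By ratio, the highest members of complexes I, III, IV and V have short coding sequences, though the annotated transcript of Cox7b has 1001 nucleotides. Their coding sequences in the reference (GENCODE vM21 on mm10) are printed for the highest of complexes I, III, IV and V, with the start and stop codons in capitals: Ndufa3 (chr7:3617373-3620327, plus strand, 255 bases), Uqcr11 (chr10:80402997-80406830, minus strand, 171 bases), Cox7b (chrX:106015700-106022450, plus strand, 243 bases) and Atp5md (chr19:47083464-47090647, minus strand, 177 bases).
Ndufa3: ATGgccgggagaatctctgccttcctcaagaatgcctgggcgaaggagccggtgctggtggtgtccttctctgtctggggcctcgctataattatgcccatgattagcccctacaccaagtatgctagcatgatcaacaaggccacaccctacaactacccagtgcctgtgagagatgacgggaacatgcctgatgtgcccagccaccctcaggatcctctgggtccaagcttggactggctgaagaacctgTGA
Uqcr11: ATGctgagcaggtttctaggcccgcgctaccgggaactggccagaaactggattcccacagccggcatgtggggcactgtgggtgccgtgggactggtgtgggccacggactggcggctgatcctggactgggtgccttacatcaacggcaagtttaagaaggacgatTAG
Cox7b: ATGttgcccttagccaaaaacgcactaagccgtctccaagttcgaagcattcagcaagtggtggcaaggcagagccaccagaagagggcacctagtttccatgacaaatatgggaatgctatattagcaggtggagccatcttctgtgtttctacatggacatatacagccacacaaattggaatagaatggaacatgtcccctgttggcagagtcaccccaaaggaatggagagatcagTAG
Atp5md: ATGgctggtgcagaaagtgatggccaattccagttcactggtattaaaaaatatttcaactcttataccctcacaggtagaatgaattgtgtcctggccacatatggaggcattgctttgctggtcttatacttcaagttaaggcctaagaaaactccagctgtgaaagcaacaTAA

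Length went with the ratio across the members. Of the 25 members whose transcript is shorter than 600 nucleotides 15 were higher and 1 was lower, and together they summed to 6224 CPM in the CD40 KO-labelled library and 4547 CPM in WT, log2 0.45. The 26 members of 600 nucleotides up to 1000 summed to 5768 against 5887 CPM (log2 -0.03; 6 higher and 5 lower) and the 26 of greater length to 3235 against 3285 CPM (log2 -0.02; 4 higher and 3 lower). Without the members shorter than 600 nucleotides the sum of all members had a log2 ratio of -0.027, the opposite sign. Over the 77 members Spearman's rho between transcript length and log2 ratio was -0.50, as a description over genes that share the same 2 libraries. Over all 7576 genes with a length it had the opposite sign, at 0.32.

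Genes outside the pathway also had high ratios where they were short, while the longest of them did not have low ones. Below 500 nucleotides 9 of 10 members were higher with a median log2 ratio of 0.77, and so were 42 of 64 other genes (65.6%), with a median of 0.56, among them 13 of 15 ribosomal protein genes. From 500 to 600 nucleotides 6 of 15 members and 35 of 71 other genes were higher. Other genes of 800 to 1000 nucleotides had a median of -0.21, while the 11 members of that length had 0.22. Other genes of 2500 nucleotides or more had a median of 0.18, with 24.7% higher and 4.82% lower, and the 3 members of that length had one of -0.09. The 4 mitochondrially encoded genes below 600 nucleotides differed: mt-Nd3 was at 293 CPM in the CD40 KO-labelled library and 181 CPM in WT (log2 0.70) and mt-Nd4l at 48.8 against 29.6 CPM (log2 0.72), while mt-Nd6 at 14.9 against 12.2 CPM (log2 0.29) and mt-Atp8, the shortest, at 18.5 against 16.8 CPM (log2 0.14) stayed within 1.3-fold. Whether length or its correlates set these ratios was not tested.

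With each ratio taken relative to the median of other genes of like length, 19 members were higher and 7 lower, and 16 of the 25 and 5 of the 9 stayed past 1.3-fold. The share of all genes past 1.3-fold was not counted on that scale, so these counts have no background beside them. Ndufb2 changed sign, to -0.18 on the log2 scale. The 4 higher members of complex III all came to lie within 1.3-fold. Uqcrh was at 0.085, Uqcrq at 0.16, Uqcr10 at 0.19 and Uqcr11 at 0.20.

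**Figure D4:**
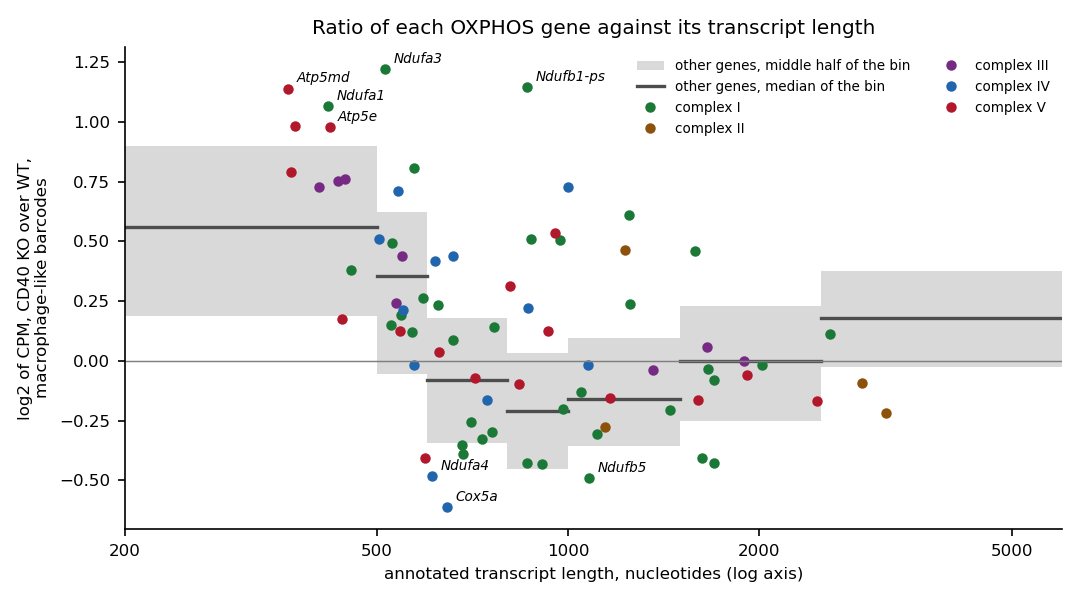
Points are the 77 measured members, with annotated transcript length in nucleotides on a log axis and the log2 ratio of CPM in macrophage-like barcodes, the CD40 KO-labelled library over WT, on the vertical axis; black lines and grey boxes are the median and quartile range of all other genes in each range of length. Members and other genes below 500 nucleotides both stand high, with medians of 0.77 and 0.56.

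The motifs searched, known from respiratory genes, were in a larger share of the members' promoters than of all promoters, for GABPA and ERRA from few matches. All promoters were not matched to those of the members in base composition or kind of gene. RefSeq promoters (250 bases before to 50 after the start, GRCm38.p6) were matched for 67 of 82 members, 72 promoters in all, and set against all 32851. Searched on both strands, GCATGCGC, the core of the site of NRF1, was in 10 of 72 (13.9%, against 2.71% of all), and AAGATGGC, the core of the YY1 site, was in 10 of 72 (13.9%, against 2.75%). CCGGAAGT, read by GABPA, was in 5 (6.94%, against 3.89%) and TCAAGGTCA, read by ERRA, in 2 (2.78%, against 0.423%). Of the 10 YY1 matches 9 lay on the gene's strand and 8 held the annotated start codon, so a YY1 site and the surroundings of a start codon cannot be told apart there. NRF1 matches were in 2 of 23 promoters of higher members, in 7 of 39 of those between and in 1 of 8 of lower members, and YY1 matches in 3 of 23, 7 of 39 and 0 of 8. GABPA matches were in 2 of 23, 3 of 39 and 0 of 8, and ERRA matches in 1 of 23, 1 of 39 and 0 of 8, so 1 match in all lay in a promoter of a lower member.

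Shown are the promoters of Ndufa3, the member with the highest ratio (chr7:3617123-3617422, plus strand), and of Atp5l, the complex V member with the most UMIs (chr9:44920693-44920992, minus strand), with the YY1 match of the first and the NRF1 match of the second in capitals. The YY1 match of Ndufa3 is among those that hold the annotated start codon.
Ndufa3 promoter: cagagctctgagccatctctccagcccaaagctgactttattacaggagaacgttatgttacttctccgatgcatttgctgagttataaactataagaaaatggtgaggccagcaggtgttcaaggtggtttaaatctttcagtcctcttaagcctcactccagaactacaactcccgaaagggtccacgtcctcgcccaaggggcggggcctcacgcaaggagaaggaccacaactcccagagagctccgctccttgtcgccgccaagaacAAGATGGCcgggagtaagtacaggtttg
Atp5l promoter: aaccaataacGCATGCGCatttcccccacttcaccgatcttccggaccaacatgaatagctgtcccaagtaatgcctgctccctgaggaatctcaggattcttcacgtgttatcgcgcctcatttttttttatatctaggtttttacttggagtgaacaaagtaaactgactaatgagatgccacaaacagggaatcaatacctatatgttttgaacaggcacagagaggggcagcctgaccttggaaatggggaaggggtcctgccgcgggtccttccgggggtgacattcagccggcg

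Several complex IV subunits exist as alternative isoforms, and Cox4i2 and Ndufa4l2 were at higher levels in other cell types than in macrophage-like barcodes. Cox4i2, the hypoxia-linked partner of Cox4i1, was at 0.974 CPM in the macrophage-like class of the CD40 KO-labelled library and at 0.680 CPM in WT. Endothelial-like barcodes of WT held 69.9 CPM of it, from 134 UMIs in 37 of 205 barcodes, and 120 of the 134 UMIs lay in barcodes with at least 2 UMIs of Rgs5 or Kcnj8, markers of pericytes. The CD40 KO-labelled library had 12 endothelial-like barcodes with 1 UMI of Cox4i2.

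Ndufa4l2, a hypoxia-induced relative of Ndufa4, was at 0.368 CPM in the macrophage-like class of the CD40 KO-labelled library and 0.200 CPM in WT. Fibroblast-like barcodes held 103 CPM of it in the CD40 KO-labelled library (218 UMIs in 39 of 83 barcodes) and 62.6 CPM in WT (228 UMIs in 66 of 129). It was also at 98.6 CPM in endothelial-like barcodes of WT, where 187 of 189 UMIs were in the barcodes with Rgs5 or Kcnj8, and at 0 in the 12 endothelial-like barcodes of the CD40 KO-labelled library, which allows a share of up to 25% of barcodes with a UMI and sets no limit on cells that express it. Rgs5 and Kcnj8 were picked for this count after the values were seen.

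The coding sequences of Ndufa4 (249 bases) and Ndufa4l2 (264 bases) were 62.7% identical, with a longest shared run of 28 bases, in capitals here.
Ndufa4: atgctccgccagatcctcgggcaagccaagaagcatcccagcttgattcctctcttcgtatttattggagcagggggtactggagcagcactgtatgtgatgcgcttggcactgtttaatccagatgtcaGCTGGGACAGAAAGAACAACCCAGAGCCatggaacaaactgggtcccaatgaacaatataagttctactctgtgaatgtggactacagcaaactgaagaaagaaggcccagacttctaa
Ndufa4l2: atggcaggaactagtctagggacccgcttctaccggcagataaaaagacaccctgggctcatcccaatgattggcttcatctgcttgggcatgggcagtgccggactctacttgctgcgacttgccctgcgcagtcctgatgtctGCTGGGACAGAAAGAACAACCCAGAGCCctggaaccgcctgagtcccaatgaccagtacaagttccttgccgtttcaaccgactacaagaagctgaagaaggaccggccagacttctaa

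Besides the macrophage-like class, Ndufa4 was lower in the CD40 KO-labelled library in dendritic-like barcodes, at 201 against 282 CPM, and in fibroblast-like barcodes, at 410 against 535 CPM. In neutrophil-like barcodes it was at 72.1 against 108 CPM and in endothelial-like ones at 205 against 243 CPM, with counting intervals that overlapped. AA467197, which is no member but encodes an Ndufa4-like protein made by activated macrophages, went the other way in the class, at 135 against 66.8 CPM (log2 1.02). It was at 630 against 322 CPM in dendritic-like barcodes and at 592 against 662 CPM in neutrophil-like barcodes. Its ratio varied from log2 -0.16 in the cycling cluster to 1.87 in the Scin cluster.

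Isoforms of striated muscle were rare in macrophage-like barcodes and moved in opposite directions. Cox6a2 was at 1.82 CPM in the CD40 KO-labelled library (84 UMIs) and 3.76 CPM in WT (282 UMIs), while Cox7a1 was at 6.93 CPM (320 UMIs) against 3.43 CPM (257 UMIs). Cox8b, the third muscle isoform, had 6 UMIs in each library. The 15 cardiomyocyte markers summed to 127 against 107 CPM, of which Tpm1, which macrophages also express, made up 116 and 87.6 CPM, and to 11.7 against 19.2 CPM without Tpm1. All single markers except Ckm, Ttn and Tpm1 had a log2 ratio below 0, not all with intervals clear of 0. Among them were Tnnt2 at -1.27 (-1.70 to -0.86) and Mb at -1.16 (-1.70 to -0.65). Ckm was at 0.64 (0.13 to 1.14), Tpm1 at 0.40 and Ttn, from 26 against 18 UMIs, at 1.23 (0.31 to 2.18). The part of muscle RNA in the isoforms' values was not tested. Cox6b2, known from testis, was at 1.95 against 1.97 CPM.

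Cox7a1 and Cox7a2, the muscle form and the general form, were 59.0% identical over their coding sequences (243 and 252 bases), with a longest shared run of 12 bases, in capitals.
Cox7a1: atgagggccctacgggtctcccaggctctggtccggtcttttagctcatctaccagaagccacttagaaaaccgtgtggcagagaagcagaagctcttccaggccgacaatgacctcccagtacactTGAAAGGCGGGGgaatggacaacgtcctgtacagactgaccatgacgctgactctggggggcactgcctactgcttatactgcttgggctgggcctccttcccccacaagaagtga
Cox7a2: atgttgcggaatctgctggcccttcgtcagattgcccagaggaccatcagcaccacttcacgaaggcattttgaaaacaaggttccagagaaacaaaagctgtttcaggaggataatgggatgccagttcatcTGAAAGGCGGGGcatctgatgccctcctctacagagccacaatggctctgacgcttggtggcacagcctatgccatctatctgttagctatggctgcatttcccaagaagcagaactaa

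**Figure D5:**
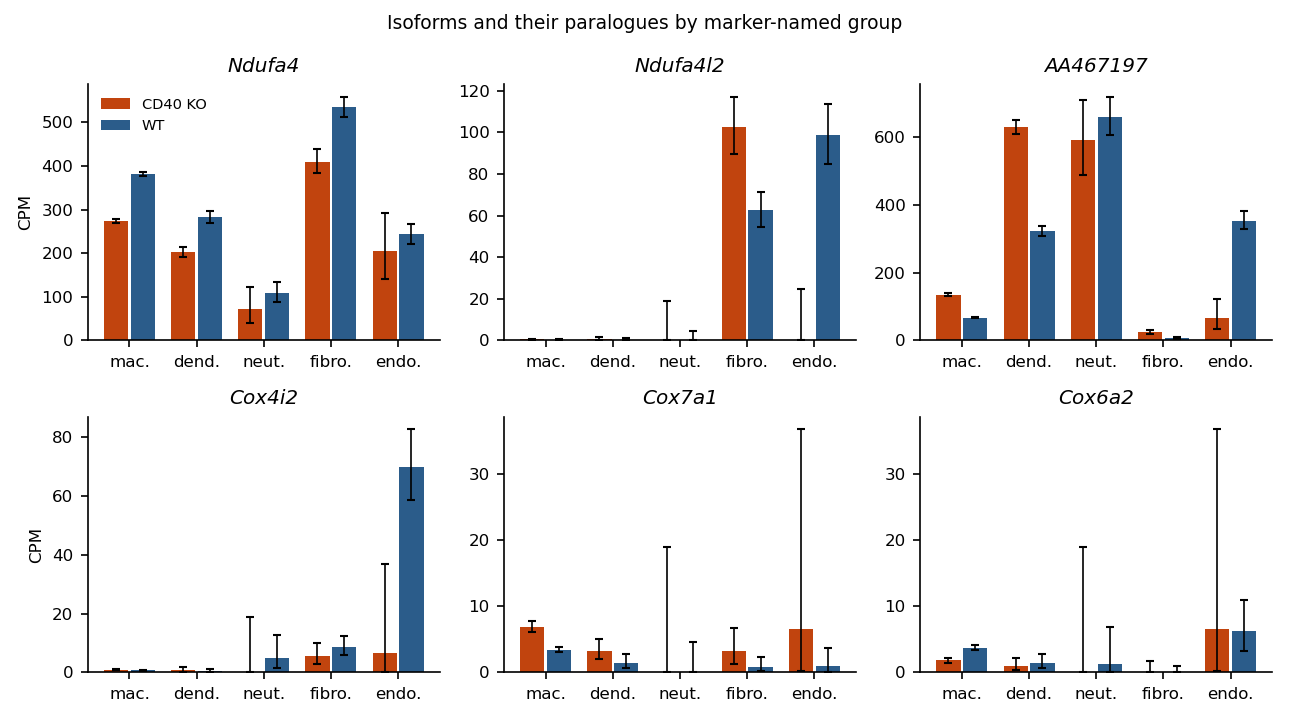
Bars are the CPM (vertical axis, from 0, with its own scale in each panel) of 5 members and of AA467197 in macrophage-, dendritic-, neutrophil-, fibroblast- and endothelial-like barcodes, for the CD40 KO-labelled library (orange) and WT (blue), with 95% counting intervals. Ndufa4l2 is high in fibroblast-like barcodes of both libraries, at 103 and 62.6 CPM, and Cox4i2 in endothelial-like barcodes of WT, at 69.9 CPM.

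Among the groups of analysed barcodes that were summed, neutrophil-like barcodes had the lowest level of the pathway in both libraries. Clusters that the markers left unnamed were not summed. Members summed to 7860 CPM (7470 to 8264) in the 63 neutrophil-like barcodes of the CD40 KO-labelled library and to 8746 CPM (8543 to 8953) in the 309 of WT. Against the macrophage-like class of the same library that was a log2 ratio of -0.96 (-1.03 to -0.88) in the CD40 KO-labelled library and -0.65 (-0.68 to -0.62) in WT. All genes measured had a median log2 ratio of -0.37 in the CD40 KO-labelled library and -0.23 in WT. In the CD40 KO-labelled library 66 of 77 members were at least 1.3-fold lower than in macrophage-like barcodes (85.7%, against 52.1% of all genes) and 0 were higher, where 28.3% of all genes were. In WT 52 of 77 were lower (67.5%, against 44.6%) and 1 was higher, where 29.8% of all genes were. All 5 complexes were lower in both, by 0.77 to 1.11 in the CD40 KO-labelled library and by 0.59 to 0.83 in WT.

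The neutrophil-like barcodes were shallow, with a median of 2949 and 2380 UMIs, and carried 58939 and 41390 CPM of the 10 neutrophil markers, so fewer members' molecules and more of other RNA cannot be told apart. All UMIs of the neutrophil-like barcodes totalled 194151 in the CD40 KO-labelled library and 802195 in WT, so single genes rested on few. Ndufa4, for one, had 14 and 87. Ratios past 1.3-fold there include counting error, more so for genes near 10 CPM, and this holds for the shares of all genes too. Members spread widely in these barcodes. Cox8a was at 582 CPM in neutrophil-like barcodes against 572 CPM in macrophage-like ones of the CD40 KO-labelled library, and at 560 against 493 CPM in WT. Atp5md was the single member at least 1.3-fold above the class in WT, at 148 against 83.9 CPM (log2 0.82), but was at 175 against 185 CPM in the CD40 KO-labelled library. Cox5a was at 134 against 372 CPM in the CD40 KO-labelled library (log2 -1.47) and at 238 against 568 CPM in WT (log2 -1.26).

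Nuclear and mitochondrially encoded transcripts did not keep step between the libraries in these barcodes. The 13 mitochondrially encoded genes were 0.91 lower on the log2 scale in neutrophil-like than in macrophage-like barcodes of the CD40 KO-labelled library, but 0.41 higher in WT. Nuclear members had 0.548 UMIs for each mitochondrially encoded UMI in neutrophil-like barcodes of the CD40 KO-labelled library and 0.257 in those of WT, against 0.564 and 0.538 in the macrophage-like class. The endothelial-like cluster was low in both, at 0.222 and 0.235.

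Dendritic-like barcodes differed less from macrophage-like ones, at 15027 CPM in the CD40 KO-labelled library and 12371 CPM in WT, log2 ratios of -0.02 and -0.15 over the class of the same library. They carried many macrophage transcripts themselves, with macrophage markers at 5182 CPM in the CD40 KO-labelled library and 8108 CPM in WT beside dendritic markers at 610 and 580 CPM. By marker gates 192 of the 300 barcodes of the CD40 KO-labelled library and 161 of the 316 of WT counted as macrophage-like, and 15 and 24 as dendritic-like. Of the members 2 were higher and 3 lower in the CD40 KO-labelled library (all genes 12% and 19.3%), and 2 higher and 6 lower in WT (18.6% and 14.6%). Cox7a2l, which helps join complexes into supercomplexes, was higher in dendritic-like than in macrophage-like barcodes in both, at 216 against 159 CPM in the CD40 KO-labelled library (log2 0.44) and 241 against 161 CPM in WT (log2 0.58). So was Ndufa6, an accessory subunit of complex I, at 183 against 122 CPM (log2 0.59) and at 141 against 102 CPM (log2 0.47). Fibroblast-like barcodes summed to 14798 CPM in the CD40 KO-labelled library and 13002 CPM in WT.

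The cluster kept apart had the highest level of the pathway among the groups summed. Members summed to 24533 CPM in its 4338 barcodes of the CD40 KO-labelled library, log2 0.69 over the macrophage-like class of that library, and to 17984 CPM in its 33 barcodes of WT, log2 0.39 over the class of WT. In the CD40 KO-labelled library 57 of 78 members were higher than in the class (73.1%, against 13.9% of all genes) and 2 were lower (against 50.6%). The 2 were Ndufs1 (log2 -0.68), a large core subunit of complex I, and Sdhc (log2 -0.54). Complex II as a whole was at -0.11, while complexes I, III, IV and V were at 0.67 to 0.74. Ndufa13 (log2 1.28) and Ndufa3 (1.25) were highest.

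Barcodes of this cluster carried 13 of 14 macrophage markers at 50 CPM or more, 16634 CPM in sum, beside 1189 CPM of neutrophil markers and 654 CPM of fibroblast markers. By marker gates 3874 of its barcodes in the CD40 KO-labelled library counted as macrophage-like, and 25 in WT. Here too the shorter members stood higher: those below 600 nucleotides had a median log2 ratio of 0.77 over the class, and those of 1000 or more one of 0.25. Other genes below 500, of 500 to 600 and of 600 to 800 nucleotides had medians of 0.50, 0.57 and 0.50, those of 2500 or more one of -0.73, and all genes one of -0.39. Ribosomal protein genes summed to 165061 CPM in the cluster and 116898 CPM in the class of the CD40 KO-labelled library, and the median mitochondrial share was 5.15% in the cluster and 2.44% to 3.00% in the clusters of the class. The part of these in the members' ratios was not tested. Added to the class, these barcodes raised the log2 ratio of the sum to 0.37 and the count of higher members to 35, with 1 lower. The share of all genes was not counted again with these barcodes added.

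In the macrophage-like class the lists of genes that build, feed or serve the chain had medians on both sides of 0. Their counts stand beside 20.6% of all genes higher and 10.5% lower, and their medians beside 0.10 for all genes. Median log2 ratios were -0.01 for the citric acid cycle list, -0.10 for protein import and -0.25 for carriers and channels. They were 0.11 for regulators of mitochondrial biogenesis and 0.03 for electron carriers. Of 30 assembly factors measured 5 were higher and 5 lower in the CD40 KO-labelled library, a median log2 of 0.01. Cox17, the copper chaperone of complex IV, was at 153 against 66.7 CPM (log2 1.20), and Coa3, a complex IV assembly factor, at 69.0 against 120 CPM (log2 -0.80). Of 18 genes of the citric acid cycle and pyruvate dehydrogenase 0 were higher and 2 lower, Suclg1 at 45.6 against 65.4 CPM (log2 -0.52) and Idh2 (log2 -0.50), with Suclg2 the highest (log2 0.32).

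Of 22 genes of protein import 1 was higher and 3 lower. Tomm7, a small subunit of the outer membrane pore, was at 253 against 114 CPM (log2 1.15), and Timm17b was the lowest (log2 -0.52). Among 9 regulators of mitochondrial biogenesis Nrf1 was higher, at 79.2 against 58.8 CPM (log2 0.43), 0 were lower, and Polg was the lowest at -0.27. Of 8 carriers and channels Atpif1, the inhibitor of the ATP synthase, was higher at 312 against 222 CPM (log2 0.49), 0 were lower, and Slc25a4 was the lowest at -0.37. Of 7 electron carriers Gpd2, which feeds electrons from glycerol phosphate to the chain, was higher at 140 against 77.6 CPM (log2 0.85), 0 were lower, and Etfb was the lowest at -0.28.

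The 13 mitochondrially encoded subunits summed to 27038 CPM in the CD40 KO-labelled library and 25510 CPM in WT (log2 0.08, beside the median of 0.10 for all genes), with 3 higher and 1 lower. Besides the short mt-Nd3 and mt-Nd4l, mt-Co1, the catalytic core of complex IV, was higher at 3976 against 2552 CPM (log2 0.64). The lower one was mt-Nd2, of complex I, at 598 against 892 CPM (log2 -0.58).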

How the data were processed

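The authors deposited raw counts of UMIs for each gene in each barcode. The libraries were Chromium 3′ v3 per the labels' protocols, and the file headers give Cell Ranger 7.0.1 as the counting software. STAR and the build mm10 are named, STAR with no version, in the submitters' processing notes. How intron reads were treated was not given in the sources used.

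Filters kept barcodes that had 1000 UMIs and 500 genes or more with no more than 10% of UMIs mitochondrial, 7930 in the CD40 KO-labelled library and 8094 in WT. Scrublet in scanpy 1.11.5 scored doublets, and the top scores were removed at 0.8% per 1000 barcodes (531 and 903), since its own threshold marked 0 and 33. Both libraries were clustered together (2000 variable genes without the members, 30 components, 15 neighbours, Leiden at resolution 0.6) and clusters were named from marker lists, under limits set after the clusters were seen.

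UMIs were summed per library and group and scaled to CPM. Genes averaging 10 CPM or more over the libraries were compared, and counted past a ratio of 1.3. Intervals are exact (Poisson, or conditional Clopper-Pearson for ratios). The counting function was checked on simulated counts with changes of known size in randomly chosen genes, not on the members. That check did not cover differences between libraries beyond counting error. Transcript lengths are from GENCODE vM21, in which 32158 of 32285 genes were found.

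Named in the text are, per complex, the 2 members with most UMIs and the 2 highest and lowest ratios, the isoforms, the mitochondrially encoded subunits that stood out, the ends of each pathway list, and further members chosen after their values were seen. The values of 1 member are not reported here by name. Members and lists were chosen with earlier results of these data known. Further tools were leidenalg 0.10.2, igraph 0.11.9, biopython 1.88, pandas 2.3.3, numpy 2.4.6, scipy 1.17.1 and matplotlib 3.10.9 under Python 3.11.15.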

Additional observations from a re-analysis of the deposited data

Results flagged for a closer look

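Some sums relative to the macrophage-like class of the same library pointed in opposite directions in the libraries. These differences were not tested, since each library gives 1 value. Mitochondrially encoded transcripts in neutrophil-like barcodes were at -0.91 on the log2 scale in the CD40 KO-labelled library (63 barcodes) and at 0.41 in WT (309 barcodes). In T or NK-like barcodes they were at -0.24 in the CD40 KO-labelled library (12 barcodes) and at 0.41 in WT (41 barcodes). In the cluster kept apart they were at 0.78 in the CD40 KO-labelled library (4338 barcodes) and at -0.15 in WT (33 barcodes), and complex II there was at -0.11 and 0.33. Nuclear members as a whole had the same sign in both libraries in each of these groups.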

How the results depend on the processing

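Values here are log2 ratios or counts of members. The sum of all members in the macrophage-like class, at 0.15, became 0.052 with median-of-ratios scaling, 0.19 with a denominator without mitochondrial, ribosomal protein and member genes, 0.12 as a mean over barcodes, 0.11 thinned to 3000 UMIs, 0.18 without doublet removal, 0.37 with marker gates in place of clusters, 0.19 with equal cluster shares and 0.37 with the cluster kept apart added. Of the alternatives chosen after the data were seen, marker gates without that cluster gave 0.18, barcodes of 15000 UMIs or more 0.17, and the class without the Lpl, Gpnmb and Fabp5 cluster 0.19, while leaving out members under 600 nucleotides turned it to -0.027. The 9 lower members became 1 with marker gates, 5 with equal cluster shares, 1 with the cluster kept apart added, 1 at a 1.5-fold limit and 4 without the Lpl, Gpnmb and Fabp5 cluster. The 25 higher members became 14 at 1.5-fold, and median-of-ratios scaling gave 19 higher and 13 lower. Shares of all genes were not counted again under the alternatives, so these counts of members have no background beside them. All 25 and all 9 kept their sign in every alternative except Ndufb2, at -0.18 relative to genes of like length; the cause of these changes was not tested. Neutrophil-like over macrophage-like barcodes, at -0.96 in the CD40 KO-labelled library and -0.65 in WT, became -0.58 and -0.42 with median-of-ratios scaling, -1.12 and -0.74 with the other denominator, and -1.14 and -0.71 with marker gates. It was -0.86 in the CD40 KO-labelled library as a mean over barcodes, and in WT -0.71 both when thinned and with marker gates without the cluster kept apart. Thinning kept 29 of the 63 neutrophil-like barcodes of the CD40 KO-labelled library and 78 of the 309 of WT. No paired analysis was possible because each group has 1 library.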

Other observations

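Barcodes over the mitochondrial limit, 214 in the CD40 KO-labelled library and 983 in WT, held 6990 and 7048 CPM of the nuclear members, against 17110 and 13394 CPM over the analysed barcodes of the same libraries. They carried 236 and 435 CPM of cardiomyocyte markers, against 128 and 126 CPM in the analysed barcodes. The mixed cluster, led by neutrophil genes with all 14 macrophage markers also detected, had 202 barcodes in the CD40 KO-labelled library and 886 in WT, with 13246 and 12763 CPM of the members.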
